A study of Mus musculus with 4 samples.

Results

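The genes described here encode the ubiquitin-conjugating (E2) enzymes of mouse erythroblasts. They were taken as every row of the authors' deposited table whose symbol begins with Ube2 and a further letter, which gave 35 of 23234 genes. The rule uses the symbol alone, although the family was picked with earlier results of these data known. RNA was sequenced from extensively self-renewing erythroblasts (ESRE), a culture of young red cell precursors that divides for long periods without maturing. The libraries used were proliferating cells with a short hairpin RNA against Setd8, control cells kept for 6 hours in maturation medium, and proliferating control cells, with 1 library each. Both control libraries carried a non-targeting hairpin, so every library came from cells with a hairpin. Knockdown cells in maturation medium, the other group in the labels, were not analysed here.

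Ubiquitin is a small protein that is joined to other proteins in a relay. An E1 enzyme activates it, an E2 enzyme carries it, and an E3 ligase brings the loaded E2 to the substrate. The E2 and E3 together set which kind of chain is built, and therefore whether the substrate goes to the proteasome, to a repair site or to another fate. Some E2 enzymes carry related modifiers instead: SUMO, NEDD8 or ISG15. Red cell precursors rely on this system late in maturation, when they clear organelles and most proteins other than haemoglobin. Setd8, the enzyme that adds a single methyl group to lysine 20 of histone H4, is itself removed in human cells through cullin-RING ligases and the anaphase-promoting complex.

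Setd8 stood at 9.28 FPKM (fragments per kilobase, a level already corrected for transcript length and library size) in the knockdown library, at 25.9 FPKM in the maturing control and at 25.1 FPKM in the proliferating control. The knockdown library thus kept 37.0% of the proliferating control level, a difference called in the authors' deposited table. The labelled cell type was checked against 10 erythroblast markers, of which 9 reached 1 FPKM in the knockdown, 10 in the maturing control and 9 in the proliferating control. Markers of T cells, B cells, fibroblasts, endothelium and hepatocytes were below 0.03 FPKM in every library. Mast cell markers differed between libraries: the summed level of 6 of them was 173 FPKM in the knockdown, 4.81 FPKM in the maturing control and 11.6 FPKM in the proliferating control. Among very low genes, the FPKM worth of a fragment gave the knockdown library 1.43 times, and the maturing control library 1.55 times, the depth of the proliferating control. The absolute depth is not known. With 1 library per group no difference below has a replicate check. The calls are those of the authors' deposited table, which marks a gene where q, the p-value adjusted over all genes tested, is at most 0.05.

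Promoter sequence is shown for 3 genes that carry the results below: Ube2l6, which was called, and Ube2c and Ube2t, which work in mitosis and in DNA crosslink repair and whose levels lay in the same order across the libraries. Each stretch holds the 250 bases before the annotated start, from RefSeq in build GRCm38.p6 (the deposited table uses mm9), read 5′ to 3′ on the plus strand. Ube2l6 lies at chr2:84798578-84798827, Ube2c at chr2:164769679-164769928 and Ube2t at chr1:134962315-134962564. Capitals mark CACCC or its reverse complement GGGTG in Ube2l6, the box bound by Krüppel-like factors such as Klf1. In Ube2c and Ube2t they mark CCAAT or ATTGG, the box bound by NF-Y, and TTTGAA or TTCAAA, the cell cycle homology region found in many mitotic promoters.
Ube2l6: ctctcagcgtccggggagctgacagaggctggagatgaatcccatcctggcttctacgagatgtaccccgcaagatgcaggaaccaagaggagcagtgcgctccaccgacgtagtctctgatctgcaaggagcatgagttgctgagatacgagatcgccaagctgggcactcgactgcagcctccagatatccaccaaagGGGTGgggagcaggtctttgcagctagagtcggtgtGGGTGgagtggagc
Ube2c: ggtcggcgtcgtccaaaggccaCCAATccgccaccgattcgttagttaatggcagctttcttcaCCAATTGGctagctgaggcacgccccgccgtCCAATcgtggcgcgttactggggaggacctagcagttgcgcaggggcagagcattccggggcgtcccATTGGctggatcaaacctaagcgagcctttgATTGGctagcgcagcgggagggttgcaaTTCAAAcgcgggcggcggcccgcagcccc
Ube2t: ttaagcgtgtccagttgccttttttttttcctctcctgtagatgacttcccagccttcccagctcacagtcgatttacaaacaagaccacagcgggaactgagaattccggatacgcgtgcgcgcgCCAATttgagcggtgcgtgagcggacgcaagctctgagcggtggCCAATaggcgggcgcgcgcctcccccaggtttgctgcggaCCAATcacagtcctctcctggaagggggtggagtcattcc

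These stretches differed in the motifs they held. The Ube2l6 stretch held 2 CACCC matches, with both strands searched. It held no CCAAT box and no cell cycle homology region. It also held no GATAA, the core that GATA factors bind, no interferon response element (2 words GAAA with 2 bases between them) and no STAT element (TTC and GAA with 3 bases between them). The Ube2c stretch held 6 CCAAT matches, 2 of which overlap at CCAATTGG, and 1 cell cycle homology region. The Ube2t stretch held 3 CCAAT matches, no cell cycle homology region, and 1 CACCC match that is not capitalised. Of 35 members, 27 had a promoter entry, with 38 stretches in all. CACCC was present in 65.8% of these stretches, against 52.0% of all 32851 stretches in the table. CCAAT was present in 18.4% of member stretches, against 33.8% of all stretches. The cell cycle homology region was present in 7.89% of member stretches, against 16.0% of all. GATAA was present in 7.89%, against 22.6% of all, and the STAT element in 7.89%, against 7.02% of all. No member stretch held the interferon response element, which 2.98% of all stretches held. These matches describe letters in a window and not bound sites.

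Of the 35 members, 31 reached 1 FPKM in at least 1 of the 3 libraries and are called measured here. The 4 others stayed below it. They were Ube2cbp, which encodes a protein that binds Ube2c and is not itself an E2, at 0.357 FPKM in the knockdown, 0.472 FPKM in the maturing control and 0.457 FPKM in the proliferating control. Ube2dnl, a Ube2d-like gene on the X chromosome, was at 0.236, 0.132 and 0.204 FPKM in the same order of libraries. Ube2ql1 was below 0.02 FPKM in every library. Ube2u was listed at 0 in the knockdown and in the maturing control and at 0.00768 FPKM in the proliferating control. The family as a whole was thus expressed almost in full in these cells. The 35 genes lie on 16 chromosomes.

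The summed level of the family was 475 FPKM in the knockdown, 497 FPKM in the maturing control and 484 FPKM in the proliferating control. It made up 0.279%, 0.280% and 0.275% of all FPKM in those libraries. The median measured member stood at 10.8 FPKM in the knockdown, 8.96 FPKM in the maturing control and 9.43 FPKM in the proliferating control. The median of all 9611 measured genes was 5.17, 5.39 and 5.31 FPKM in the same order, so the family lay above the middle of the expressed genes in each library. The same 8 members were highest in every library, among them Ube2c, Ube2d2, Ube2d3, Ube2l3, Ube2m, Ube2s and Ube2v1. They held 57.3% of the summed level in the knockdown, 64.5% in the maturing control and 62.3% in the proliferating control.

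**Figure D1:**
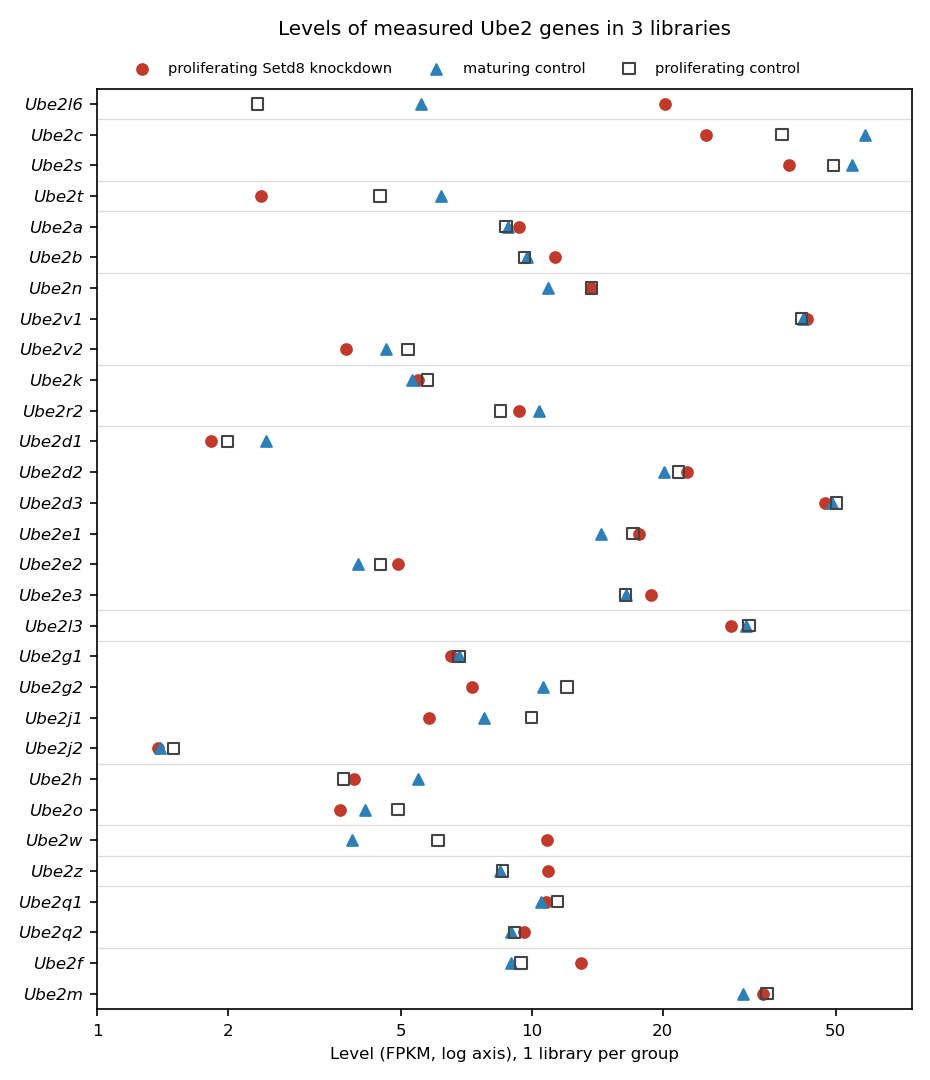
Level of 30 of the 31 measured Ube2 genes in FPKM (log axis), with 1 point per library: Setd8 knockdown (red circles), maturing control (blue triangles) and proliferating control (open squares). Grey lines separate groups of like role. Ube2l6, at the top, has the widest spread, at 20.2 FPKM in the knockdown against 2.33 FPKM in the proliferating control, and in most other rows the points lie close together.

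The knockdown was compared first, to see how the family stood in dividing cells with less Setd8. Ube2l6 was the 1 family member called, and it rose. Its level was 20.2 FPKM in the knockdown, against 2.33 FPKM in the proliferating control, a ratio of 8.67. In the authors' deposited table it had a log2 ratio of 3.12 with a standard error of 0.50, implied by the test statistic, and a q of 4.23e-08. No member was called lower. Of the 35 members, 33 were tested by the authors, and 1 of 33 calls stands beside 9.05% of all genes tested, 5.81% called higher and 3.24% called lower. Among genes that reached 1 FPKM the called share was 6.03%, beside 1 of 31 members. Read against these shares, the count is no result about the family as a whole. In these bulk libraries a change in the share of cells that express a gene and a change in its level per cell cannot be told apart.

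Ube2l6 (chromosome 2, 84638984 to 84650160 in mm9) encodes the E2 enzyme that carries ISG15, a ubiquitin-like protein known from interferon responses, and it can also carry ubiquitin. It ranked 9 among the members in the knockdown, 23 in the maturing control and 29 in the proliferating control. In the knockdown library 86.3% of measured genes stood below it, against 23.8% in the proliferating control. Among the 158 genes called higher with at least 5 FPKM in a library of this comparison, it took place 47 by log2 ratio of FPKM + 1. Its closest relative in the family, Ube2l3, which serves HECT and RBR ligases such as parkin, stood at 28.7 FPKM in the knockdown, 31.2 FPKM in the maturing control and 31.6 FPKM in the proliferating control. The authors' deposited table made no call on Ube2l3, whose knockdown log2 ratio was -0.14 (standard error 0.40). Ube2l6 was the lesser of this pair in every library.

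The other genes of the ISG15 pathway were not called. Uba7, the E1 enzyme that activates ISG15, stood at 8.48 FPKM in the knockdown, 3.36 FPKM in the maturing control and 4.19 FPKM in the proliferating control. The authors' deposited table gave Uba7 a knockdown log2 ratio of 1.02 (standard error 0.47), an unadjusted p of 0.0288 and a q of 0.260, above the threshold. Isg15 itself was at 0.0261 FPKM in the knockdown, 0.472 FPKM in the maturing control and 0.150 FPKM in the proliferating control. The authors' deposited table gave Isg15 a log2 ratio of -2.52 (unadjusted p 0.0346, q 0.297) in the knockdown and 1.66 (unadjusted p 0.0113, q 0.126) in maturation, and called neither. The transcript of the modifier was thus almost absent from the library in which its E2 stood highest. Herc6, the main ISG15 ligase of the mouse, was at 0.683, 1.10 and 0.555 FPKM, and Usp18, the protease that removes ISG15, at 0.0882, 0.132 and 0.0563 FPKM, in the same order of libraries. Trim25, an interferon-induced ligase, was at 5.92, 6.79 and 7.03 FPKM.

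Within 100 kb of Ube2l6, 6 other rows were tested by the authors, and 2 of the 6 were called in the knockdown. Over all genes tested the called share was 9.05%, with 5.81% called higher. Whether the region differed from these shares was not tested. Timm10, an import chaperone of mitochondria and the nearest measured neighbour, stood at 11.7 FPKM in the knockdown, against 11.3 FPKM in the proliferating control. Slc43a1, a transporter of large neutral amino acids, stood at 2.07 FPKM in the knockdown, against 0.264 FPKM in the proliferating control, and the authors' deposited table called it higher with a q of 1.03e-05. Rtn4rl2, which stayed below 1 FPKM, was also called there, with a q of 0.0319, at 0.271 FPKM in the knockdown, against 0.0325 FPKM in the proliferating control. Clp1, Zdhhc5 and Med19 on the other side stood at 9.61, 8.92 and 4.79 FPKM in the knockdown, against 9.99, 9.99 and 5.66 FPKM in the proliferating control, and were not called.

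Mast cell markers moved with Ube2l6 in the knockdown. All 6 of them (Cpa3, Tpsab1, Tpsb2, Cma1, Mcpt4 and Ms4a2) reached 1 FPKM in the knockdown, against 3 in the proliferating control, with the summed levels given above, and none was at 0 in any library. In the maturing control 2 of the 6 reached 1 FPKM, and their sum was below that of the proliferating control, while Ube2l6 had a higher value there. Megakaryocyte markers summed to 9.93 FPKM in the knockdown, 2.97 FPKM in the maturing control and 3.13 FPKM in the proliferating control. No myeloid marker reached 1 FPKM in any library. The 10 erythroblast markers summed to 841 FPKM in the knockdown, 3061 FPKM in the maturing control and 1936 FPKM in the proliferating control. The part of these marker differences in the Ube2l6 level was not tested.

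**Figure D2:**
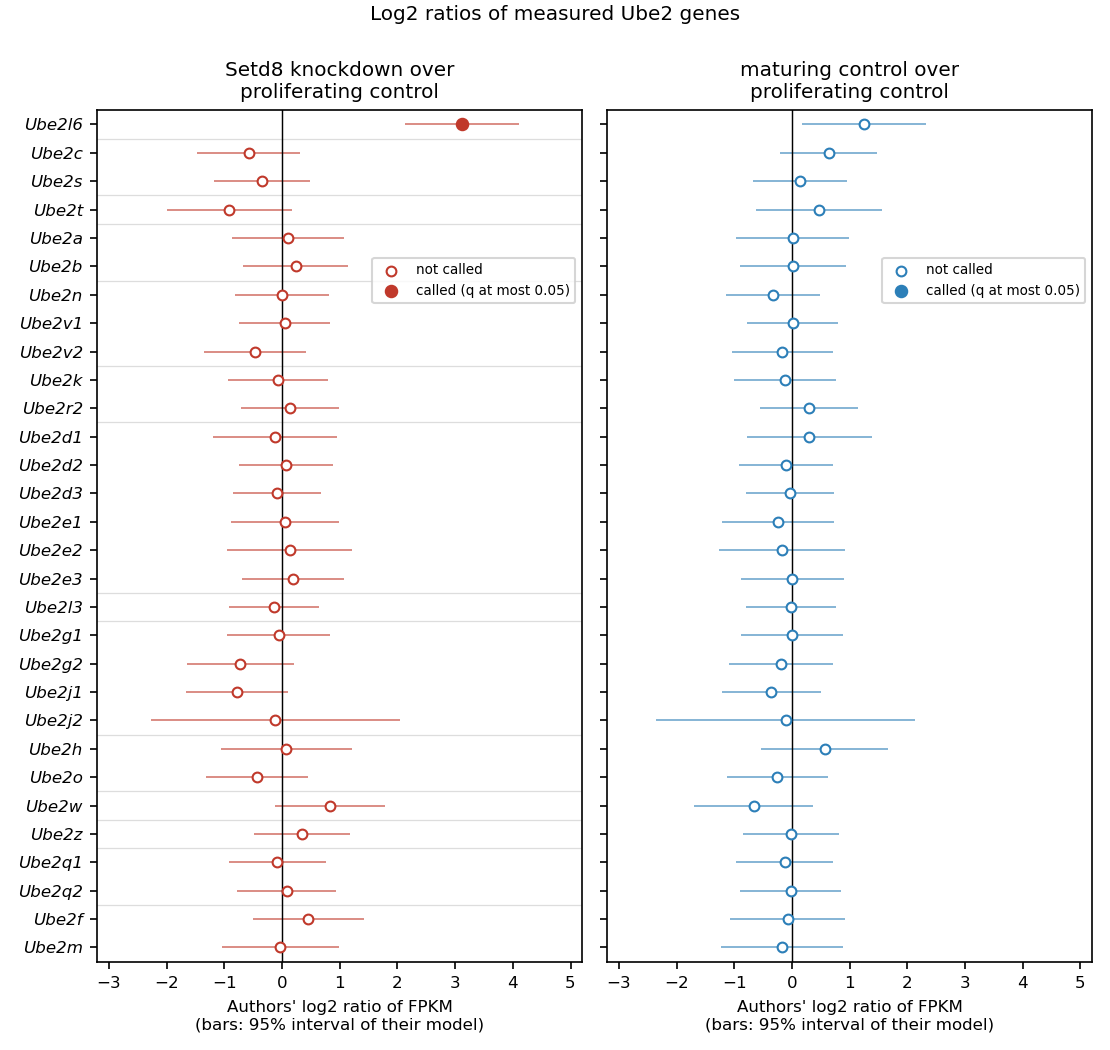
Log2 ratio of FPKM in the authors' deposited table for 30 of the 31 measured Ube2 genes, knockdown over proliferating control (left) and maturing control over proliferating control (right). Bars are 95% intervals from the standard error implied by the authors' test, and filled points were called. Ube2l6 is the only filled point, at 3.12 on the left.

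The E2 enzymes of mitosis and of DNA crosslink repair were lower in value in the knockdown, without a call. Ube2c, which starts ubiquitin chains on the anaphase-promoting complex, stood at 25.2 FPKM in the knockdown, against 37.6 FPKM in the proliferating control. The authors' deposited table gave it a log2 ratio of -0.58 (standard error 0.45, q 0.882). Ube2s, which lengthens those chains, stood at 39.0 FPKM in the knockdown, against 49.5 FPKM in the proliferating control. Ube2t, the partner of the Fanconi anaemia ligase, stood at 2.38 FPKM in the knockdown, against 4.47 FPKM in the proliferating control, with a log2 ratio of -0.91 (standard error 0.56, q 0.610) in the authors' deposited table. For these 3 genes the knockdown library held the lowest of the 3 values and the maturing control the highest, but the 95% interval of each knockdown ratio included 0.

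E2 enzymes of the endoplasmic reticulum were also lower in value. Ube2j1, which sits in the membrane of that organelle, stood at 5.81 FPKM in the knockdown, against 9.99 FPKM in the proliferating control, with a log2 ratio of -0.78 (standard error 0.45, q 0.529) in the authors' deposited table. Ube2g2, which builds lysine 48 chains on misfolded proteins there, stood at 7.28 FPKM in the knockdown, against 12.04 FPKM in the proliferating control, with a log2 ratio of -0.72 (standard error 0.47, q 0.698) in that table. Their relatives Ube2j2, at 1.38 and 1.496 FPKM, and Ube2g1, at 6.52 and 6.79 FPKM, differed less in value. Ube2g1 works with cullin-RING ligases in human cells. Ube2j2 had the widest standard error of the family, 1.10. The row Gm5801 overlaps Ube2j2 in position, and rows of a microRNA and of Nkiras1 overlap Ube2g2 and Ube2e1. Whether fragments were shared between these rows was not tested. The summed level of Ube2g1, Ube2g2, Ube2j1 and Ube2j2 was 21.0 FPKM in the knockdown, against 30.3 FPKM in the proliferating control.

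Higher in value, again without a call, were 3 genes that act in unlike ways. Ube2w, which joins ubiquitin to the amino terminus of proteins, stood at 10.8 FPKM in the knockdown, against 6.08 FPKM in the proliferating control, with a log2 ratio of 0.83 (standard error 0.49, q 0.550) in the authors' deposited table. Ube2f, which hands NEDD8 to the cullin Cul5, stood at 12.9 FPKM in the knockdown, against 9.43 FPKM in the proliferating control, with a log2 ratio of 0.46 (standard error 0.49, q close to 1) in that table. Ube2z, which is loaded by the E1 enzyme Uba6, stood at 10.9 FPKM in the knockdown, against 8.55 FPKM in the proliferating control.

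Other measured members stayed close to their control values. Ube2m, the other NEDD8 carrier, was at 34.1 FPKM in the knockdown, against 34.8 FPKM in the proliferating control. Among the E2 enzymes that serve many ligases, Ube2d1 was at 1.83 and 1.99 FPKM, Ube2d2 at 22.8 and 21.7 FPKM and Ube2d3 at 47.4 and 50.3 FPKM, in knockdown and proliferating control. Ube2d2 and Ube2d3 are close paralogs, and whether fragments were shared between them was not tested. Ube2e1, Ube2e2 and Ube2e3, relatives with a longer amino terminus, were at 17.7, 4.91 and 18.8 FPKM in the knockdown, against 17.1, 4.49 and 16.4 FPKM in the proliferating control. All 6 of these broad carriers had a log2 ratio of FPKM + 1 within 0.25.

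Carriers for particular chains did the same, apart from Ube2v2. Ube2n, which builds lysine 63 chains, was at 13.7 FPKM in both libraries. Its inactive partners Ube2v1 and Ube2v2 were at 43.0 and 3.74 FPKM in the knockdown, against 41.7 and 5.19 FPKM in the proliferating control. For lysine 48 chains, Ube2k was at 5.48 and 5.76 FPKM and Ube2r2, which works with cullin-RING ligases, at 9.34 and 8.47 FPKM, in knockdown and proliferating control. Ube2a and Ube2b, the Rad6 enzymes of chromatin and DNA damage tolerance, were at 9.36 and 11.3 FPKM in the knockdown, against 8.72 and 9.60 FPKM in the proliferating control. Ube2q1 was at 10.8 and 11.4 FPKM and Ube2q2 at 9.61 and 9.11 FPKM, in knockdown and proliferating control.

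A pair of members has a known tie to red cells. Ube2o, a large enzyme that is both E2 and E3 and that clears ribosomal proteins in mouse reticulocytes, stood at 3.62 FPKM in the knockdown, against 4.92 FPKM in the proliferating control, with a log2 ratio of -0.44 (standard error 0.45, q close to 1) in the authors' deposited table. Ube2h, which works with the CTLH ligase in human erythroid maturation, stood at 3.89 FPKM in the knockdown, against 3.69 FPKM in the proliferating control, with a log2 ratio of 0.08 (standard error 0.58, q close to 1) in that table. Neither difference exceeded its standard error.

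Over the 31 measured members, 15 had a higher and 16 a lower value in the knockdown, and the median log2 ratio of FPKM + 1 was -0.03, beside -0.05 over all measured genes. The split became 22 higher and 9 lower when ratios were centred on abundant genes, and 20 higher and 11 lower with equal upper quartiles. The median size of the ratio, without its sign, was 0.13 for the members and 0.22 for all measured genes. A ratio within 0.25 was held by 20 of 31 members (64.5%) and by 54.6% of all measured genes. A ratio of 1 or more in size was reached by 1 member, Ube2l6, beside 6.98% of all measured genes. The other 30 measured members stayed at 0.74 or less. Precision limits this: the median 95% interval of the authors' model reached 0.89 to either side, a factor of 1.85, before adjustment over all genes. A call needs a larger ratio than that. Uba7, outside the family, had a log2 ratio of 1.02 in the authors' deposited table and was not called (q 0.260). Changes of that size or smaller in these members could therefore go uncalled in this pair of libraries.

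**Figure D3:**
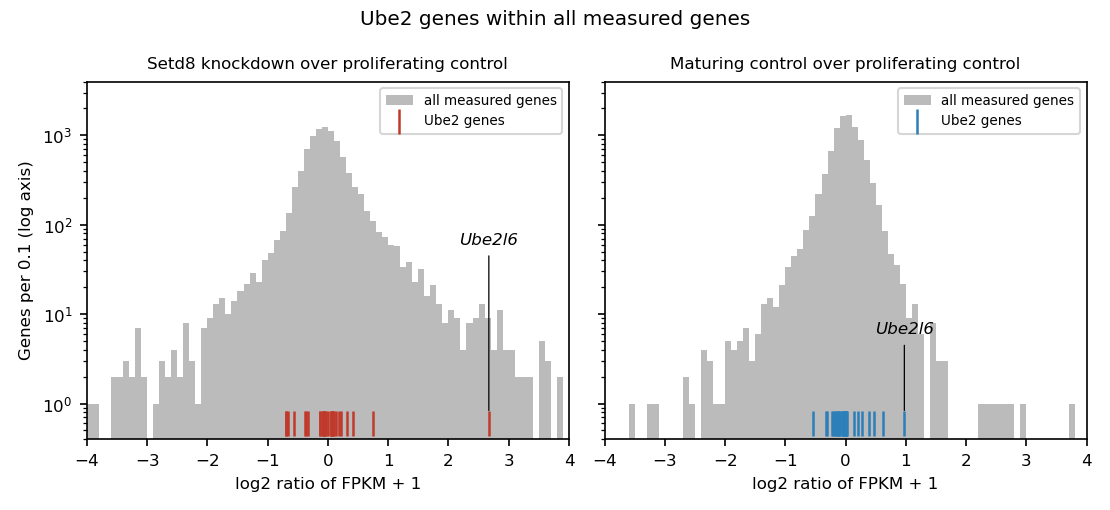
Histograms of the log2 ratio of FPKM + 1 for all measured genes (grey, genes per 0.1, log axis), with each of the 31 measured Ube2 genes as a coloured tick, for the knockdown (left) and the maturing control (right), both over the proliferating control. Axes end at 4, beyond which lie 23 genes on the left and 4 on the right. All ticks but that of Ube2l6 lie within 0.74 of 0.

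The maturing control was compared next, to see how the family stood after 6 hours in maturation medium. No member was called in either direction. Of the 35 members, 33 were tested by the authors, beside 1.75% of all tested genes called, or 1.33% of those that reached 1 FPKM. At an unadjusted p below 0.05, 1 of 31 measured members passed, Ube2l6, beside 353 of 9611 measured genes. Both comparisons use the same proliferating control library, so they are not independent of each other.

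Ube2l6 stood at 5.55 FPKM in the maturing control, against 2.33 FPKM in the proliferating control, a ratio of 2.38. The authors' deposited table gave it a log2 ratio of 1.25 with a standard error of 0.55, an unadjusted p of 0.0232 and a q of 0.221, and the 95% interval ran from 0.17 to 2.33. The level in the maturing control lay between those of the other libraries. On the scale of FPKM + 1 its log2 ratio was 0.97, just under 1. No member reached 1 in size on that scale, beside 1.66% of all measured genes.

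The mitotic pair had higher values in the maturing control. Ube2c stood at 58.4 FPKM, against 37.6 FPKM in the proliferating control, with a log2 ratio of 0.63 (standard error 0.43, q 0.736) in the authors' deposited table. This made it the highest member in the maturing control, where it had ranked 4 in the proliferating control and 7 in the knockdown. Ube2s stood at 54.7 FPKM in the maturing control and 49.5 FPKM in the proliferating control. Ube2t was at 6.17 FPKM in the maturing control, against 4.47 FPKM in the proliferating control. None of the 3 was called.

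Ube2h, the CTLH partner, stood at 5.46 FPKM in the maturing control, against 3.69 FPKM in the proliferating control, with a log2 ratio of 0.57 (standard error 0.56, q close to 1) in the authors' deposited table. Ube2o stood at 4.13 FPKM in the maturing control, against 4.92 FPKM in the proliferating control, with a log2 ratio of -0.25 (standard error 0.45, q close to 1) in that table. The values of this pair therefore lay on opposite sides of the control, and neither was called.

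The lowest ratios in the maturing control belonged to Ube2w, Ube2j1 and Ube2n. Ube2w stood at 3.85 FPKM in the maturing control, against 6.08 FPKM in the proliferating control, with a log2 ratio of -0.66 (standard error 0.53, q 0.901) in the authors' deposited table. Ube2w thus had its highest value in the knockdown, at 10.8 FPKM, and its lowest in the maturing control. Ube2j1 stood at 7.77 FPKM in the maturing control, against 9.99 FPKM in the proliferating control, and Ube2n at 10.9 FPKM, against 13.7 FPKM. The authors' deposited table gave them log2 ratios of -0.36 (standard error 0.44) and -0.33 (standard error 0.42), both with q close to 1.

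All 6 broad carriers lay within 0.25 of the control on the log2 scale of FPKM + 1. Ube2d1, Ube2d2 and Ube2d3 were at 2.44, 20.2 and 49.0 FPKM in the maturing control, and Ube2e1, Ube2e2 and Ube2e3 at 14.5, 3.98 and 16.5 FPKM. The NEDD8 carriers also stayed near their control values, with Ube2m at 30.7 FPKM and Ube2f at 8.96 FPKM in the maturing control. The Rad6 pair stood at 8.80 FPKM for Ube2a and 9.75 FPKM for Ube2b. Ube2v1 and Ube2v2 were at 42.0 and 4.62 FPKM, Ube2k and Ube2r2 at 5.28 and 10.4 FPKM, and Ube2q1 and Ube2q2 at 10.5 and 8.96 FPKM in the maturing control. Ube2g1, Ube2g2 and Ube2j2 stood at 6.78, 10.6 and 1.39 FPKM, Ube2l3 at 31.2 FPKM and Ube2z at 8.46 FPKM.

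Over the 31 measured members, 11 had a higher and 20 a lower value in the maturing control. The median log2 ratio of FPKM + 1 was -0.02, beside 0.01 over all measured genes. With equal upper quartiles 18 were higher and 13 lower. The median size of the ratio was 0.14, beside 0.15 over all measured genes. A ratio within 0.25 was held by 23 of 31 members (74.2%) and by 69.5% of all measured genes. Apart from Ube2l6, 17 of 30 measured members lay within 0.25 in both comparisons.

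The rest of the pathway was described through 12 lists of partner genes with 109 different genes, of which 108 matched a row and 103 were measured. None of the 103 was called in either comparison, beside the 6.03% and 1.33% of measured genes given above. List medians below are log2 ratios of FPKM + 1, over the proliferating control. Medians within 0.10 of 0 changed sign under at least 1 other scaling or filter in most lists and give no direction.

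The first steps of the relay were close to control in value. Ubb, which encodes a chain of ubiquitin units, stood at 1444 FPKM in the knockdown, 1274 FPKM in the maturing control and 1293 FPKM in the proliferating control. Rps27a, a fusion of ubiquitin and a ribosomal protein, stood at 195 FPKM in the knockdown, 198 FPKM in the maturing control and 193 FPKM in the proliferating control. The 4 ubiquitin genes had a median of 0.04 in the knockdown and 0.00471 in the maturing control. Uba1, the main E1 enzyme for ubiquitin, stood at 30.8 FPKM in the knockdown, 28.9 FPKM in the maturing control and 31.6 FPKM in the proliferating control. The 8 E1 enzymes had medians of -0.01 in the knockdown and -0.12 in the maturing control. Uba3, which activates NEDD8, was farthest in the maturing control, at 5.44 FPKM against 6.82 FPKM in the proliferating control. Of 7 measured E2 or E2-like genes with other symbols, Cdc34, the close relative of Ube2r2, stood at 21.8 FPKM in the knockdown, 25.6 FPKM in the maturing control and 29.4 FPKM in the proliferating control. Tsg101, an inactive E2-like subunit of the sorting machinery of endosomes, stood at 9.40 FPKM in the knockdown, against 8.24 FPKM in the proliferating control.

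In the anaphase-promoting complex, the partner of Ube2c and Ube2s, the median over 16 genes was -0.04 in the knockdown and 0.07 in the maturing control. Its activator Cdc20 stood at 13.4 FPKM in the knockdown, 23.2 FPKM in the maturing control and 17.4 FPKM in the proliferating control, the same order as Ube2c. The subunits Anapc13 and Cdc23 lay on opposite sides, at 32.2 and 5.92 FPKM in the knockdown, against 21.6 and 9.17 FPKM in the proliferating control. Anapc16 stood at 9.53 FPKM in the maturing control, against 11.99 FPKM in the proliferating control. The complex thus had no common direction in these libraries.

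Of 15 cullin-RING core genes, 13 had a lower value in the knockdown, with a median of -0.27, which was -0.16 with equal upper quartiles and -0.11 at 5 FPKM or more. The scaffold Cul5 and the substrate receptor Skp2 were the farthest there, at 3.01 and 2.60 FPKM in the knockdown, against 4.41 and 3.78 FPKM in the proliferating control. In the maturing control the median of this list was -0.08. Dtl, the receptor that recognises Setd8 in human cells, stood at 4.90 FPKM in the knockdown, 9.52 FPKM in the maturing control and 6.70 FPKM in the proliferating control. Its scaffold Cul4a stood at 8.61 FPKM in the knockdown, 14.5 FPKM in the maturing control and 11.2 FPKM in the proliferating control. Both had the order of libraries seen for Ube2c, without a call.

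The CTLH ligase, the partner of Ube2h, had a median of -0.05 over 11 genes in the knockdown and 0.06 in the maturing control. Its subunit Ranbp10 stood at 5.24 FPKM in the knockdown, 12.6 FPKM in the maturing control and 9.16 FPKM in the proliferating control. The authors' deposited table gave Ranbp10 a log2 ratio of -0.81 (standard error 0.42, q 0.425) in the knockdown and 0.46 (standard error 0.41, q 0.981) in maturation. Mkln1 stood at 4.57 FPKM in the knockdown, against 5.88 FPKM in the proliferating control, and Ypel5 at 6.69 FPKM in the maturing control, against 4.43 FPKM in the proliferating control. Maea, a catalytic subunit named for the attachment of erythroblasts to macrophages, was at 16.2 FPKM in the knockdown, 17.2 FPKM in the maturing control and 17.1 FPKM in the proliferating control.

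Of 9 ligases of DNA damage and lysine 63 chains, 7 had a lower value in the knockdown and 7 a higher value in the maturing control. Their medians were -0.17 in the knockdown, which became 0.00496 at 5 FPKM or more, and 0.17 in the maturing control. Rad18, the partner of Ube2a and Ube2b, stood at 2.88 FPKM in the knockdown, against 3.60 FPKM in the proliferating control. Traf6, a partner of Ube2n, stood at 3.71 FPKM in the knockdown, against 4.76 FPKM in the proliferating control. Brca1 and its partner Bard1 stood at 4.84 and 4.02 FPKM in the maturing control, against 3.32 and 2.87 FPKM in the proliferating control. The 4 genes of the N-end rule, which reads the first residue of a protein, had a median of -0.12 in the knockdown, which was -0.03 when centred on abundant genes or with equal upper quartiles. In the maturing control their median was 0.27, and 0.14 with a pseudocount of 5 FPKM. Ubr4 and Ubr1 stood at 1.93 and 2.37 FPKM in the knockdown, against 2.61 and 2.69 FPKM in the proliferating control. Ate1 and Ubr2 stood at 4.77 and 4.27 FPKM in the maturing control, against 3.68 and 3.29 FPKM in the proliferating control.

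For degradation at the endoplasmic reticulum, where Ube2g2 and Ube2j1 act, the medians over 7 genes were -0.14 in the knockdown and 0.09 in the maturing control. The knockdown median was -0.04 with equal upper quartiles, -0.05 when centred on abundant genes and -0.27 at 5 FPKM or more, and the maturing median was 0.16 with equal upper quartiles. Derl1, a subunit of the exit channel, stood at 23.4 FPKM in the knockdown, 25.996 FPKM in the maturing control and 31.8 FPKM in the proliferating control. Derl1 thus followed the order of Ube2g2 and Ube2j1 across the libraries.

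The list of the SUMO pathway had a median of -0.20 over 16 genes in the knockdown, which was -0.10 with equal upper quartiles, and -0.01 in the maturing control. Its ligase Pias3 was the farthest gene, at 3.76 FPKM in the knockdown, 2.997 FPKM in the maturing control and 2.10 FPKM in the proliferating control. The SUMO proteases Senp3 and Senp7 came next, Senp3 at 12.1 FPKM in the knockdown, against 14.96 FPKM in the proliferating control, and Senp7 at 2.68 FPKM in the maturing control, against 1.90 FPKM in the proliferating control. The NEDD8 list, partners of Ube2m and Ube2f, had medians of -0.05 in the knockdown and 0.02 in the maturing control over 8 genes. Nedd8 itself stood at 47.7 FPKM in the knockdown, 66.5 FPKM in the maturing control and 64.6 FPKM in the proliferating control. Cops5, the subunit that removes NEDD8 from cullins, stood at 19.97 FPKM in the knockdown, against 23.9 FPKM in the proliferating control. The 3 measured ISG15 genes, given above, had a median of 0.11 in the knockdown, which lay between 0.03 (pseudocount of 5 FPKM) and 0.33 (filter at 5 FPKM) under the alternatives. In the maturing control it was -0.04, against 0.10 without a filter and -0.15 at 5 FPKM or more.

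**Figure D4:**
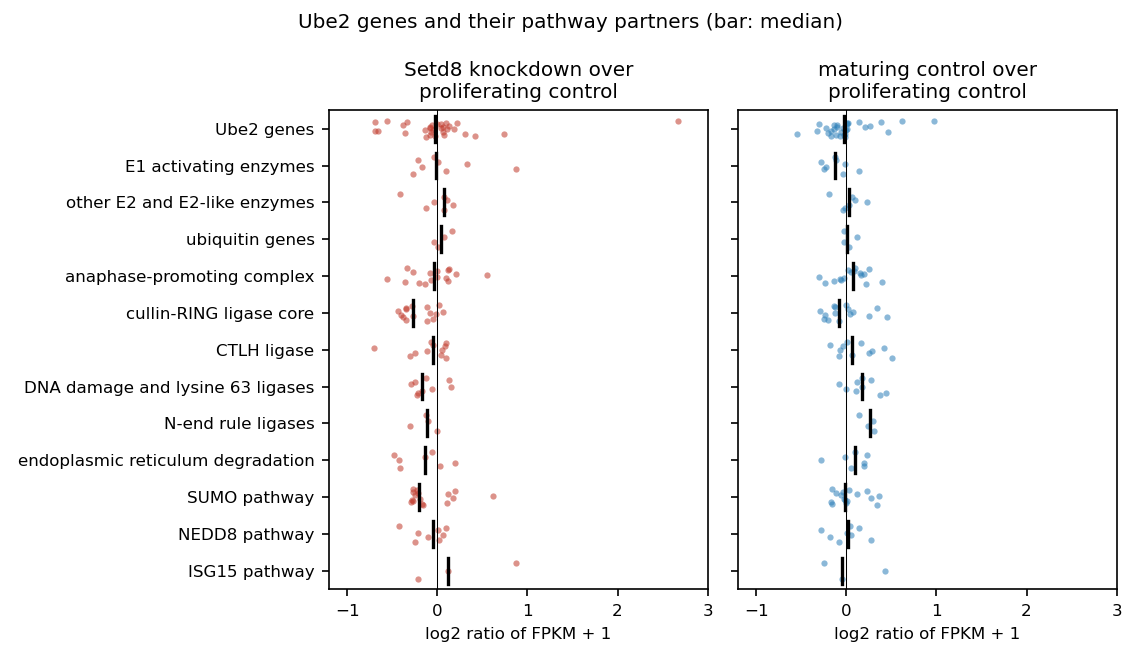
Log2 ratio of FPKM + 1 of each measured gene (points) and the median (black bar) for the Ube2 genes and 12 partner lists, knockdown over proliferating control (left) and maturing control over proliferating control (right). Medians lie between -0.27 and 0.11 on the left, and Ube2l6, at 2.67 on that side, lies apart from every other point.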

How the data were processed

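Per the submitters' processing notes, Cufflinks 2.0.2, Cuffdiff, FastQC 0.10.1 and mm9 were used, with no role given. The sources used here do not give the aligner, the annotation or the strand setting. A single table of 65535 rows, written in the column layout of Cuffdiff, was deposited. The FPKM values per library were made by the authors before deposit with Cufflinks tools, per the submitters' processing notes, and the unit follows from the column layout and the values. The deposited p-values and q-values and the log2 ratio are the authors'. A gene was marked exactly where q was at most 0.05 among tested rows. The third comparison was incomplete, with 19067 rows against 23234 in each of the others, and held no Ube2 row. That absence is therefore no result about these genes. Libraries were matched by name; that of the knockdown (titled like a control) was matched by its target and number.

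From these values the log2 ratio of FPKM + 1 was computed, which understates changes of low genes. The standard error is the deposited log2 ratio divided by the statistic. No test was run, since each group had 1 library, and p-values here measure the authors' model only. No absolute depth is given, so no counting interval was computed. Full statistics are given for called members, the 3 largest ratios each way at 5 FPKM or more, and Ube2c, Ube2h, Ube2l6 and Ube2o; Ube2l3, Ube2t, Uba7, Ranbp10 and the neighbours of Ube2l6 were added with values known. Of each partner list the genes farthest from 0 were named, up to 2 per comparison, and Uba1, Maea, Isg15 and Usp18 by role. A measured member and some partner genes are counted in the totals but not reported here by name. Members and lists were chosen with earlier results of these data known. Motifs were searched with a script that reads both strands. The ratio step was tested on simulated data. Python 3.11.15, numpy 2.4.6 and pandas 2.3.3 were used.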

Additional observations from a re-analysis of the deposited data

How the results depend on the processing

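No call on a Ube2 gene changed with a q of at most 0.01, with a required log2 ratio of 1, or with filters at 1 or 5 FPKM: Ube2l6 was called in the knockdown under each. The family median is too close to 0 to give a direction. In the knockdown it was -0.03 and took the other sign under an equal upper quartile (0.0835), centring on abundant genes (0.06), TPM (0.02), an equal sum without globins (0.01), a filter at 5 FPKM (0.00019) and the mean (0.02). In the maturing control it was -0.02, against 0.05 under the upper quartile and 0.01 as a mean. The count of members whose ratio reached 1 in size was 0 in the maturing control and became 1, Ube2l6, with a pseudocount of 0.1 FPKM (1), an equal upper quartile (1) and TPM (1), since its main value of 0.97 lay just below. Across scalings at most 7 of 31 members changed sign, none above 0.084 in size. The upper quartile moved the median of abundant genes in the knockdown by 0.11. Of partner lists, Uba7 reached 1 in size in the knockdown with a pseudocount of 0.1 FPKM and as TPM. The knockdown ratio of Ube2l6 was 1.78 with a pseudocount of 5 FPKM, against 2.67 in the main setting. No paired analysis was possible because each group had 1 library. For the same reason no library could be left out.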
